A study of Mus musculus with 10 samples.

Results

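The major histocompatibility complex of the mouse, named H2, is a dense block of immune genes on chromosome 17, and its genes were taken as the rows of the count table whose Ensembl identifier carries a GENCODE symbol beginning with H2-. The rule found 49 genes of the 78298 in the table, which are all 49 that the annotation lists. There were 2 classical class I genes (H2-K1 and H2-D1), 33 non-classical class I genes (8 of the Q family, 11 of the T family and 14 of the M family), 12 class II genes, and 2 entries named H2-K2, a long non-coding RNA and a pseudogene. All lie between 34193607 and 37794472 on chromosome 17 (GRCm39), a stretch of 3.60 Mb.

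Whole hearts were compared by bulk RNA sequencing between 5 libraries of mice labelled p38delta knockout and 5 of mice labelled WT. The knockout-labelled mice were females of a C57BL/6J background with a germline deletion of p38δ, a stress-activated kinase encoded by Mapk13. They had received 1 intraperitoneal injection of 30 mg/kg doxorubicin, an anthracycline that damages heart muscle, and their hearts were taken 72 h later. The wild-type-labelled mice were females of the same background with the same injection and collection time, so the drug is common to both groups and its own effect is not measured here. The deletion is in the germline and not restricted to a cell type.

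Classical class I molecules sit on nearly all nucleated cells and show peptides of the cell's own proteins to CD8+ T cells. Their heavy chain pairs with beta-2-microglobulin and is loaded in the endoplasmic reticulum. Non-classical class I molecules are related in structure but show few or special peptides, or serve as ligands of natural killer and γδ T cell receptors. Class II molecules are made by B cells, dendritic cells and activated macrophages and show peptides of engulfed proteins to CD4+ T cells. In the heart, class II transcripts are known mainly from resident immune cells, while classical class I transcripts come from many cell types, the endothelium among them.

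Total counts ran from 21403189 to 33477767 in the knockout-labelled and from 22082289 to 40627138 in the wild-type-labelled libraries. Mapk13, the targeted gene, held 12, 10, 10, 15 and 9 counts in knockout-labelled libraries 1 to 5, against 292, 5, 2, 1 and 4 counts in wild-type-labelled libraries 1 to 5, so the counts were higher in all 5 knockout-labelled libraries than in 4 of the 5 wild-type-labelled ones. Its fitted log2 fold change was -1.76 (edgeR adjusted p = 0.780), the labelled direction, with most wild-type-labelled counts in library 1. Outside that library, these low counts go against the labels. The targeted gene thus does not check the genotypes, and every direction below is by label. Wild-type-labelled library 1 stood apart: its airway and alveolar markers summed to 785 CPM (counts scaled to a common library size), against 70.4 CPM in wild-type-labelled library 3 and at most 2.61 CPM in any of the other libraries. Its 10 macrophage and monocyte markers summed to 339.5 CPM, against 77.1 to 115.6 CPM in the knockout-labelled libraries and 87.9 to 122.5 CPM in the other wild-type-labelled ones. The 4 mesothelium markers summed to 9.999 to 18.5 CPM in the knockout-labelled and 19.99 to 69.0 CPM in the wild-type-labelled libraries. These sums did not overlap between the groups. Of the single markers, Krt19, Msln and Wt1 did overlap, and only Upk3b did not. Cardiomyocyte markers were abundant in all libraries, from 24130 to 54560 CPM in the knockout-labelled and from 18310 to 41070 CPM in the wild-type-labelled ones. Because these are bulk samples, fewer cells of a type and less RNA per cell cannot be told apart in any value below.

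The promoters of H2 genes carry short, well-studied elements. The kappaB core is bound by NF-κB, the interferon response element by interferon regulatory factors, and the X and Y boxes of class II promoters by the RFX and NF-Y complexes that recruit the class II transactivator Ciita. Promoter sequences for 30 of the 49 genes were matched by symbol in the RefSeq promoter table (GRCm38.p6). H2-T24, H2-T10, H2-Q5 and H2-Ab1 have no entry in it. The 180 bases before the start site are printed for 8 genes, because they are the members with the kappaB core, the 2 non-classical genes with an unadjusted p under 0.05 on the lower side, and 2 class II genes. Letters in capitals mark the kappaB core (GGGGATTCC), the interferon response letters (GAANNGAAA, on the opposite strand TTTCNNTTC), the Y box (ATTGG or CCAAT) and the X box (TAGNAAC or GTTNCTA), each searched on both strands, and no 2 of them overlap in these stretches. H2-K1 lies at chr17:34000348-34000527 on the minus strand, H2-D1 at chr17:35262914-35263093 on the plus strand, H2-Q6 at chr17:35424670-35424849 on the plus strand and H2-Q7 at chr17:35438975-35439154 on the plus strand. H2-T23 lies at chr17:36032702-36032881 on the minus strand, H2-M3 at chr17:37270054-37270233 on the plus strand, H2-Aa at chr17:34287824-34288003 on the minus strand and H2-Eb1 at chr17:34305687-34305866 on the plus strand. Each is written 5′ to 3′ on the strand of its gene.
H2-K1: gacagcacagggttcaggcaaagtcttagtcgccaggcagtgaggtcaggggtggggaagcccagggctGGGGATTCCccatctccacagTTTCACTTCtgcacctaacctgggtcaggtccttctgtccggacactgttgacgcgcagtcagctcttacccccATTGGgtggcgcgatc
H2-D1: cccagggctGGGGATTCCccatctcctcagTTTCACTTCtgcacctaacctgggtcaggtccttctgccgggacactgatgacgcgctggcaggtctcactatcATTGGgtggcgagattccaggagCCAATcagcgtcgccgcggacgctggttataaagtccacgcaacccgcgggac
H2-Q6: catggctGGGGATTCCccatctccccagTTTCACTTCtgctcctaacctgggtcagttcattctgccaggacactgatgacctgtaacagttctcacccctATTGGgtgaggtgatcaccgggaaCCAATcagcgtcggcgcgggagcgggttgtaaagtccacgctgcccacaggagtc
H2-Q7: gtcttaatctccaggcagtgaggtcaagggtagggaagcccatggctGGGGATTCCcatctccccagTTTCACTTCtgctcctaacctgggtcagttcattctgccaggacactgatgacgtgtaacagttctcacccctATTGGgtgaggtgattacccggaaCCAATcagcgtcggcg
H2-T23: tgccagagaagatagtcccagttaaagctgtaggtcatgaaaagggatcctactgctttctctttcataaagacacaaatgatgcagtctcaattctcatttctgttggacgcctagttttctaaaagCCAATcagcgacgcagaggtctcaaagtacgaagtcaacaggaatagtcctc
H2-M3: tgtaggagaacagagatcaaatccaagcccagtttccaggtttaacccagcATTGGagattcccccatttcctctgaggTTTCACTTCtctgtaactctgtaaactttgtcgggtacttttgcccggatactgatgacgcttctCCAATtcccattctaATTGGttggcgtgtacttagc
H2-Aa: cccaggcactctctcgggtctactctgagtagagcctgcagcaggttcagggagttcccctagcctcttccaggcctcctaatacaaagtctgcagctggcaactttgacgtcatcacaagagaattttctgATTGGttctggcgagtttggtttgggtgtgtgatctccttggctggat
H2-Eb1: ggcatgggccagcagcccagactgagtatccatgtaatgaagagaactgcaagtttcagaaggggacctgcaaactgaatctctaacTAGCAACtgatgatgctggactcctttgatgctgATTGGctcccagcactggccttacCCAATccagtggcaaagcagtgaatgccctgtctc

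Within the window of 250 bases before to 50 after the start site, the kappaB core was found in 4 of the 30 H2 promoters, those of H2-K1, H2-D1, H2-Q6 and H2-Q7, against 0.259% of all 27025 promoters of the table. The interferon response letters were found in 8 of the 30 (H2-K1, H2-D1, H2-Q4, H2-Q6, H2-Q7, H2-Q10, H2-M3 and H2-M2), against 7.56% of all promoters. In H2-K1, H2-D1, H2-Q6 and H2-Q7 the kappaB core stood just upstream of the interferon response letters, and both stood upstream of an ATTGG. The Y box was found in 26 of the 30, against 37.9% of all promoters. The X box was found in 5 of the 30, of which 4 were among the 8 class II promoters, against 11.6% of all promoters. A match of letters is a description of the sequence only.

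Of the 49 genes, 18 held enough counts to be tested: both classical genes, 10 non-classical ones, 5 class II genes and the H2-K2 long non-coding RNA. Per kilobase of exon, the order of the mean levels over all libraries was H2-D1 (47.4 CPM per kb), H2-K1 (40.9), H2-Q4 (9.78), H2-Q7 (7.81), H2-Q6 (7.68), H2-T23 (7.51), H2-T22 (5.83), H2-Eb1 (2.63), H2-T24 (2.62), H2-Aa (1.99), H2-Q5 (1.75), H2-Ab1 (1.68), H2-K2 (1.54), H2-M3 (1.24), H2-T10 (0.596), H2-DMb1 (0.481), H2-Q10 (0.333) and H2-DMa (0.208). The order differed between the groups: in knockout-labelled hearts H2-Q7 (9.76 CPM per kb) and H2-Q6 (9.25) stood above H2-T23 (6.16), and in wild-type-labelled hearts H2-T23 (8.86) and H2-T22 (6.23) stood above H2-Q6 (6.12) and H2-Q7 (5.87). H2-T24 stood above H2-Eb1 in knockout-labelled hearts (3.37 and 3.07 CPM per kb) and below it in wild-type-labelled hearts (1.88 and 2.20). Part of the wild-type-labelled order rested on library 1. Without it, H2-T24 stood above H2-Eb1 and H2-T22 below H2-Q6 and H2-Q7, while H2-T23 stayed above both Q genes. Classical transcripts led the family in these hearts. They made up 54.6% to 59.7% of all H2 counts in the knockout-labelled and 58.95% to 64.8% in the wild-type-labelled libraries. Of the 17 pairs of neighbours in the order over all libraries, 14 had per-library ranges of CPM per kb that overlapped in both groups. H2-K1 stood apart from H2-Q4 in both groups, H2-K2 from H2-M3 in the knockout-labelled and H2-M3 from H2-T10 in the wild-type-labelled hearts.

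**Figure D1:**
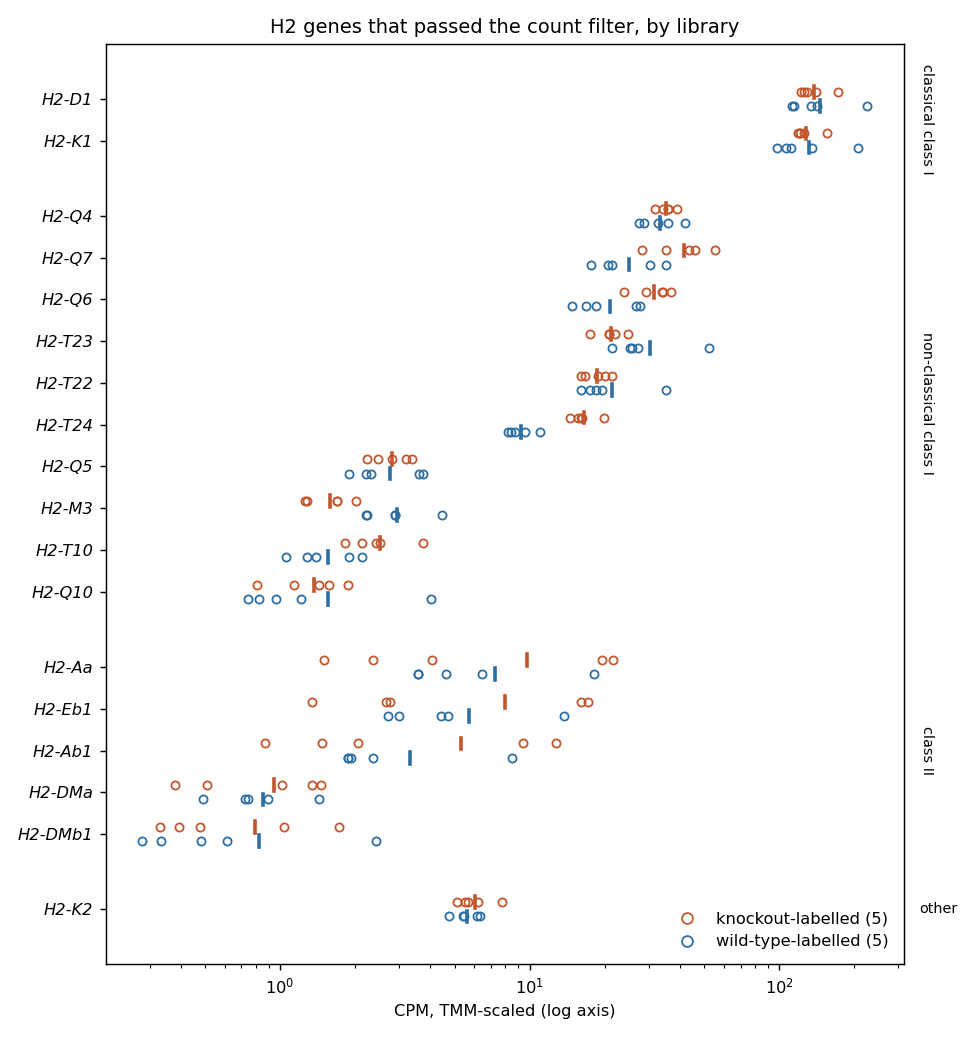
Level of each of the 18 tested H2 genes in each library, as CPM on a log axis, by class; circles are the 5 knockout-labelled (orange) and 5 wild-type-labelled (blue) libraries and bars the group means. H2-T24 lies between 14.5 and 19.9 CPM in the knockout-labelled and between 8.16 and 11.03 CPM in the wild-type-labelled libraries, while the class II genes spread widely in both groups.

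The study's question was how loss of p38δ alters the heart's transcripts once the drug has been given. Of the 18 H2 genes, H2-T24 was called higher in the knockout-labelled hearts and none was called lower (edgeR quasi-likelihood test, Benjamini-Hochberg adjusted over 16700 genes, called at an adjusted p under 0.05). Over all genes tested, 0.24% were called higher and 0.114% lower. At an unadjusted p under 0.05, 4 H2 genes were higher (H2-T24, H2-Q6, H2-Q7 and H2-T10), against a background of 3.08%, and 2 were lower (H2-T23 and H2-M3), against 3.77%. All 6 are non-classical class I genes. The median log2 fold change of the 18 genes was 0.10, with 11 above 0 and 7 below, beside a median of -0.01 over all genes tested, with 7790 above 0 and 8910 below.

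**Figure D2:**
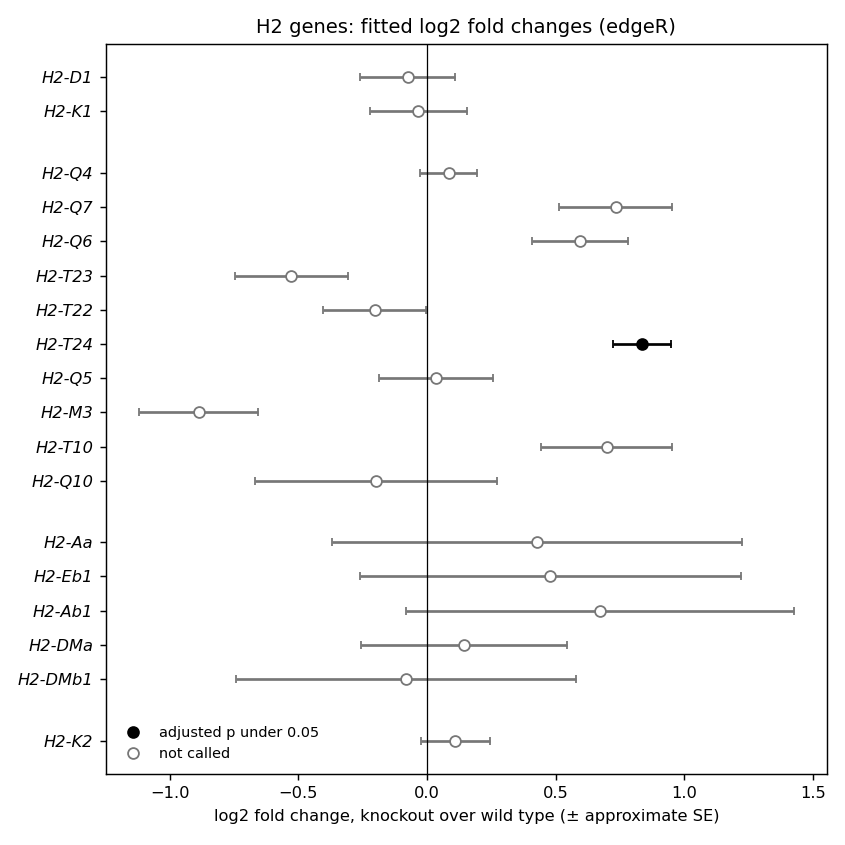
Fitted log2 fold change of each tested H2 gene, knockout-labelled over wild-type-labelled, with its approximate standard error (bars); the filled point passed the test. H2-T24 at 0.83 has a short bar, whereas the 3 class II genes at the right, H2-Aa, H2-Eb1 and H2-Ab1, have bars that reach across 0.

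H2-T24 (ENSMUSG00000053835) is a protein-coding class I gene of the T family on the minus strand of chromosome 17, from 36314363 to 36331485. It stood at 14.5, 16.02, 19.9, 15.6 and 16.1 CPM in knockout-labelled libraries 1 to 5, against 11.03, 8.16, 8.45, 8.76 and 9.60 CPM in wild-type-labelled libraries 1 to 5. The groups did not overlap, and the lowest knockout-labelled heart was above the highest wild-type-labelled one. The means were 16.4 ± 2.07 CPM in knockout-labelled and 9.20 ± 1.16 CPM in wild-type-labelled hearts (SD, n = 5 each), a log2 fold change of 0.83 ± 0.11 (SE; edgeR adjusted p = 0.00398), or 1.78-fold. H2-T24 passed the test in each fit that left out 1 library, with log2 fold changes of 0.76 to 0.91 and edgeR adjusted p-values of 0.00056 to 0.0208. With library totals alone in place of TMM factors, the log2 fold change was 0.72 and the adjusted p 0.294 (edgeR), while the median of all genes tested was -0.12. The antisense long non-coding RNA A930015D03Rik covers 10.4% of the exonic bases of H2-T24, and the strand setting of the counting is not given in the sources used here. That RNA averaged 0.803 ± 0.444 CPM in knockout-labelled and 1.56 ± 0.278 CPM in wild-type-labelled hearts (SD, n = 5 each; edgeR adjusted p = 0.717), the opposite direction to H2-T24. It held only 2 to 64 counts in a library, and the part of the overlap in the H2-T24 level was not tested. Of the 100-base stretches in transcripts of H2-T24, 7.73% also occur in another gene, mostly in A930015D03Rik. The same limit holds for other members, where a gene on the opposite strand covers more of the exonic bases. The share was 29.8% for H2-T22, 27.1% for H2-T10, 26.8% for H2-K1, 24.2% for H2-D1 and 11.9% for H2-T23.

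H2-Q6 and H2-Q7 encode heavy chains of Qa-2, a class I molecule that in its membrane form is held by a lipid anchor. H2-Q7 stood at 35.3, 55.1, 43.6, 28.3 and 46.0 CPM in knockout-labelled libraries 1 to 5, against 35.2, 17.6, 30.5, 20.6 and 21.4 CPM in wild-type-labelled libraries 1 to 5. H2-Q6 stood at 29.2, 36.8, 34.3, 23.97 and 33.9 CPM in knockout-labelled libraries, against 27.8, 14.8, 26.7, 18.5 and 16.9 CPM in wild-type-labelled libraries. Both genes were high in knockout-labelled libraries 2, 3 and 5, and wild-type-labelled libraries 1 and 3 reached into the knockout-labelled range. H2-Q7 had a log2 fold change of 0.73 ± 0.22 (unadjusted p = 0.00647, edgeR adjusted p = 0.569) and H2-Q6 of 0.59 ± 0.19 (unadjusted p = 0.00823, edgeR adjusted p = 0.572). Neither passed the test. Without wild-type-labelled libraries 1 and 3, the ones with airway markers, H2-Q6 did pass, at a log2 fold change of 0.93 (edgeR adjusted p = 0.0138), and H2-Q7 did not, at 1.07 (adjusted p = 0.0846). That setting was chosen after the values were seen. It leaves out the highest wild-type-labelled values of both genes, so the pass of H2-Q6 there is no separate support. Of the 3856 100-base stretches of H2-Q6, 541 occur in another gene, and 5.86% of them all occur in H2-Q7, so reads may have been divided between the pair. Their sum avoids that division and averaged 73.3 ± 15.2 CPM in knockout-labelled and 46.0 ± 13.3 CPM in wild-type-labelled hearts (SD, n = 5 each).

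The other Q genes had close means. H2-Q4, the most abundant of them, held 34.1, 38.9, 35.9, 35.8 and 31.9 CPM in knockout-labelled libraries, against 42.0, 28.7, 35.8, 32.8 and 27.4 CPM in wild-type-labelled libraries, and the groups overlapped (log2 fold change 0.08, edgeR adjusted p = 0.892). H2-Q5 averaged 2.82 ± 0.478 CPM in knockout-labelled and 2.75 ± 0.851 CPM in wild-type-labelled hearts (SD, n = 5 each; edgeR adjusted p = 0.984). H2-Q10, known as a secreted class I molecule of the liver, averaged 1.36 ± 0.406 CPM and 1.55 ± 1.39 CPM in knockout- and wild-type-labelled hearts (SD, n = 5 each; edgeR adjusted p = 0.949).

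H2-T23 encodes Qa-1, which shows leader peptides of classical class I proteins to the inhibitory receptor made of CD94 and NKG2A. It stood at 21.9, 24.7, 20.8, 17.4 and 20.7 CPM in knockout-labelled libraries 1 to 5, against 52.3, 25.8, 25.3, 27.1 and 21.4 CPM in wild-type-labelled libraries 1 to 5. Library 1 of the wild-type-labelled group was far above the rest, and the ranges of the groups overlapped. The log2 fold change was -0.53 ± 0.22 (unadjusted p = 0.0356, edgeR adjusted p = 0.706), and -0.23 without that library (edgeR adjusted p = 0.788).

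H2-T22 and H2-T10 encode class I molecules without bound peptide that are ligands of γδ T cell receptors. H2-T22 averaged 18.6 ± 2.22 CPM in knockout-labelled and 21.3 ± 7.88 CPM in wild-type-labelled hearts (SD, n = 5 each; edgeR adjusted p = 0.850). H2-T10 held 2.52, 3.73, 2.43, 1.82 and 2.13 CPM in knockout-labelled libraries, against 2.13, 1.28, 1.90, 1.40 and 1.06 CPM in wild-type-labelled libraries. Its log2 fold change was 0.70 ± 0.25 (unadjusted p = 0.0181, edgeR adjusted p = 0.642), and the groups overlapped. Of its 100-base stretches 28.9% occur in another gene, so its counts are uncertain. The shares were 23.1% in BC023719, a gene on the opposite strand without counts in any library, and 7.23% in H2-T22. Summed, H2-T10 and H2-T22 averaged 21.1 ± 2.89 CPM in knockout-labelled and 22.9 ± 8.24 CPM in wild-type-labelled hearts (SD, n = 5 each). Without wild-type-labelled library 1 the wild-type-labelled mean was 19.3 CPM. Most of this sum is H2-T22.

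H2-M3 presents peptides that begin with formylmethionine, as those of bacteria and mitochondria do. It was at 2.01, 1.69, 1.29, 1.69 and 1.26 CPM in knockout-labelled libraries 1 to 5, against 4.46, 2.22, 2.89, 2.89 and 2.21 CPM in wild-type-labelled libraries 1 to 5. No knockout-labelled heart reached the lowest wild-type-labelled one. The summed mesothelium markers were also lower in every knockout-labelled heart, and their part in the levels of H2-M3, H2-T24 and the other H2 genes was not tested. The log2 fold change of H2-M3 was -0.89 ± 0.23 (unadjusted p = 0.0026), which did not pass after adjustment (edgeR adjusted p = 0.368). Without wild-type-labelled library 1 it was -0.68 (edgeR adjusted p = 0.367). H2-M3 and H2-T24 were the 2 of 18 H2 genes whose groups did not overlap, against a background of 1.78% of all genes tested. None of the 100-base stretches of H2-M3 occurs in another gene.

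The classical genes had close means. H2-K1 stood at 126.0, 155.8, 121.6, 118.7 and 120.7 CPM in knockout-labelled libraries 1 to 5, against 206.9, 111.9, 135.8, 106.2 and 97.6 CPM in wild-type-labelled libraries 1 to 5. H2-D1 stood at 140.9, 172.3, 125.9, 122.6 and 129.8 CPM in knockout-labelled libraries, against 225.6, 134.4, 141.5, 114.4 and 112.1 CPM in wild-type-labelled libraries. In both genes the highest value of all was that of wild-type-labelled library 1, the library with the macrophage and airway markers, and the next that of knockout-labelled library 2. Log2 fold changes were -0.04 ± 0.19 for H2-K1 (edgeR adjusted p = 0.979) and -0.07 ± 0.19 for H2-D1 (edgeR adjusted p = 0.951), and 0.19 and 0.14 without wild-type-labelled library 1. The pair moved together over the libraries: the ratio of H2-K1 to H2-D1 counts stayed between 0.895 and 0.969 in knockout-labelled and between 0.832 and 0.96 in wild-type-labelled libraries. The part of the cells that carry the library 1 markers in these levels was not tested.

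Since classical and non-classical levels were both high in wild-type-labelled library 1, each of the other 16 tested H2 genes was also set against the summed CPM of H2-K1 and H2-D1 in its own library. This ratio was chosen after the values were seen and is given without a test. The groups did not overlap for 6 of the 16 genes, 4 higher and 2 lower in knockout-labelled hearts, against a background of 1.06% of all genes. The divisor is made of H2 genes, which were high in the same library as other members, so that background is not a like comparison. The 6 are also the genes that had an unadjusted edgeR p under 0.05, so the ratio is no separate support for them. H2-Q7 came to 13.2%, 16.8%, 17.6%, 11.7% and 18.4% of the classical sum in knockout-labelled libraries, against 8.13%, 7.15%, 11.0%, 9.31% and 10.2% in wild-type-labelled libraries. H2-Q6 came to 11.9 ± 1.71% in knockout-labelled and 7.70 ± 1.48% in wild-type-labelled hearts, H2-T24 to 6.26 ± 1.22% and 3.49 ± 0.794%, and H2-T10 to 0.933 ± 0.145% and 0.566 ± 0.0864% in the same order of groups (SD, n = 5 each). H2-T23 was on the lower side, at 8.20%, 7.53%, 8.40%, 7.21% and 8.27% in knockout-labelled libraries, against 12.1%, 10.5%, 9.13%, 12.3% and 10.2% in wild-type-labelled libraries. H2-M3 was lower too, at 0.598 ± 0.119% in knockout-labelled and 1.07 ± 0.148% in wild-type-labelled hearts (SD, n = 5 each). The ratio shows unequal levels within a library and not which of its terms differed.

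**Figure D3:**
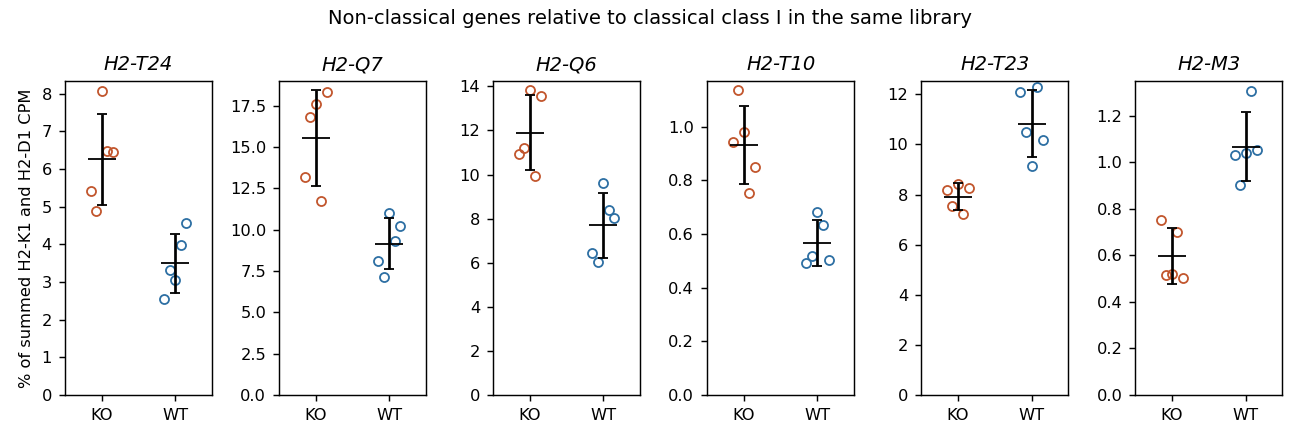
Level of 6 non-classical genes as a percentage of the summed H2-K1 and H2-D1 CPM of the same library, knockout-labelled left of wild-type-labelled; circles are libraries, lines the mean and SD (n = 5 each). H2-T24, H2-Q7, H2-Q6 and H2-T10 lie higher and H2-T23 and H2-M3 lower in every knockout-labelled library; these 6 are the genes whose groups did not overlap.

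Class II levels varied widely within both groups. H2-Aa, the alpha chain of the I-A molecule, stood at 2.36, 19.5, 4.05, 21.5 and 1.497 CPM in knockout-labelled libraries 1 to 5, against 18.1, 3.58, 3.57, 6.45 and 4.63 CPM in wild-type-labelled libraries 1 to 5. H2-Ab1, its beta chain, stood at 2.05, 12.7, 1.48, 9.41 and 0.869 CPM in knockout-labelled libraries, against 8.48, 1.92, 2.36, 1.88 and 1.88 CPM in wild-type-labelled libraries. The I-E beta chain H2-Eb1 stood at 2.75, 17.1, 2.67, 15.99 and 1.35 CPM in knockout-labelled libraries, against 13.7, 2.99, 2.70, 4.72 and 4.42 CPM in wild-type-labelled libraries. All 3 were high in knockout-labelled libraries 2 and 4 and wild-type-labelled library 1, and low in the other 7. None passed the test: the log2 fold changes were 0.43 ± 0.80 for H2-Aa, 0.67 ± 0.75 for H2-Ab1 and 0.48 ± 0.74 for H2-Eb1, with edgeR adjusted p-values of 0.927, 0.868 and 0.912. For H2-Ab1 it was 0.06 without knockout-labelled library 2, 0.36 without knockout-labelled library 4 and 1.41 without wild-type-labelled library 1. H2-Ea, the I-E alpha chain, which is known not to be transcribed in the H-2b haplotype of C57BL/6 mice, had 2 counts in wild-type-labelled library 4 and 0 in the rest.

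The genes that load class II molecules had lower counts. H2-DMa, a chain of the peptide editor DM, averaged 0.942 ± 0.482 CPM in knockout-labelled and 0.856 ± 0.351 CPM in wild-type-labelled hearts (SD, n = 5 each; edgeR adjusted p = 0.958). H2-DMb1, a beta chain of DM, averaged 0.792 ± 0.593 CPM and 0.825 ± 0.899 CPM in the same order (edgeR adjusted p = 0.986). Among members under the filter, H2-DMb2, the other DM beta chain, had 1, 26, 2, 7 and 0 counts in knockout-labelled libraries, against 56, 1, 0, 1 and 0 in wild-type-labelled libraries. The chains of DO, a modulator of DM best known from B cells, had their counts in few libraries. H2-Ob had 7, 33, 3, 13 and 3 counts in knockout-labelled libraries, against 78, 4, 4, 1 and 5 in wild-type-labelled libraries, and H2-Oa had 0, 26, 0, 2 and 0 counts, against 14, 0, 0, 0 and 1. For H2-Eb2 the counts were 1, 27, 0, 2 and 2 in knockout-labelled libraries, against 30, 1, 0, 0 and 1 in wild-type-labelled libraries. The highest count of each of these 4 genes was in knockout-labelled library 2 or wild-type-labelled library 1.

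The summed B cell markers were high in the same 3 libraries as the class II genes, and the sums of the other immune cell lists were not high in all 3. The 12 class II genes summed to 8.42, 56.4, 9.28, 50.2 and 5.21 CPM in knockout-labelled libraries, against 48.0, 10.2, 9.79, 14.4 and 11.9 CPM in wild-type-labelled libraries. The 6 B cell markers summed to 0.118, 2.96, 0.238, 2.01 and 0.12 CPM in knockout-labelled libraries, against 14.7, 0.358, 0.684, 0.289 and 0.18 CPM in wild-type-labelled libraries. None of the 6 passed the filter, and Ms4a1 was at 0 in 3 of the 10 libraries. The 7 T and natural killer cell markers were high in knockout-labelled library 2, at 11.5 CPM, and wild-type-labelled library 1, at 3.98 CPM, and not in knockout-labelled library 4, at 0.876 CPM. The macrophage and monocyte markers were at 96.4 CPM in knockout-labelled library 2 and 77.1 CPM in knockout-labelled library 4, the lowest of all libraries, and at 339.5 CPM in wild-type-labelled library 1. The 8 dendritic cell markers summed to 17.8 to 27.4 CPM in knockout-labelled and 16.3 to 20.7 CPM in wild-type-labelled libraries, most of it from Zbtb46 and Clec9a, and Xcr1 was at 0 in 6 of the 10 libraries. Of these markers, Ccr7 was low but highest in the same 3 libraries as class II, and the others were not. It stood at 0.88 and 0.162 CPM in knockout-labelled libraries 2 and 4 and 0.483 CPM in wild-type-labelled library 1, against at most 0.0515 CPM elsewhere. B cell markers were highest in wild-type-labelled library 1, while the class II sum was highest in knockout-labelled library 2. The part of these cells in the class II levels was not tested.

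**Figure D4:**
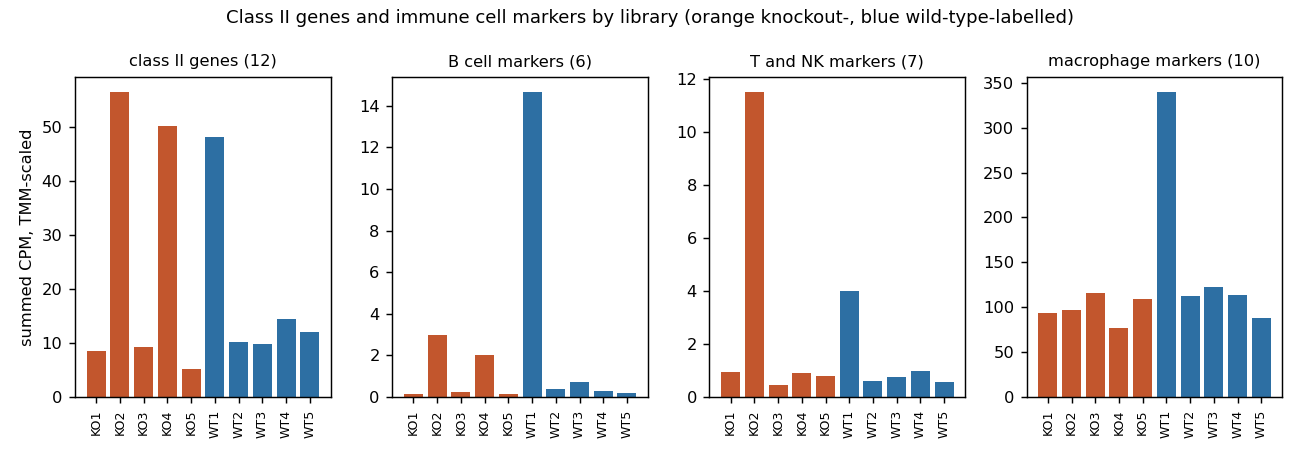
Summed CPM of the 12 class II genes and of 3 lists of immune cell markers in each library, knockout-labelled (KO1 to KO5, orange) and wild-type-labelled (WT1 to WT5, blue). Class II sums are 56.4, 50.2 and 48.0 CPM in KO2, KO4 and WT1 and at most 14.4 CPM elsewhere; the B cell sum is also above 2 CPM in these 3 libraries, and the macrophage sum stands out in WT1.

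Of the 2 H2-K2 entries, the long non-coding RNA averaged 6.05 ± 1.024 CPM in knockout-labelled and 5.61 ± 0.642 CPM in wild-type-labelled hearts (SD, n = 5 each; edgeR adjusted p = 0.876), and the pseudogene had no counts. In all, 31 members did not pass the filter. Of these, 11 were at 0 in all libraries, 10 had at most 9 counts in any library, and 10 had 10 or more in at least 1. Beside the 4 class II genes above, the last group held 6 class I genes. H2-Q2 had 1, 12, 0, 1 and 1 counts in knockout-labelled libraries, against 12, 0, 1, 0 and 2 in wild-type-labelled libraries. H2-T3, which encodes the thymus leukaemia antigen, had 2, 15, 0, 0 and 4 counts, against 3, 1, 1, 0 and 0. Its 15 counts were in knockout-labelled library 2. The 5 thymocyte markers summed to 7.22 CPM there, against 7.56 CPM in wild-type-labelled library 1 and at most 3.53 CPM in the other libraries. Of these markers, Rag1 stood at 2.89 CPM in knockout-labelled library 2, against at most 0.0898 CPM in any other library. Themis and Dntt were also highest there, while Cd1d1 and Ptcra were not. The part of such cells was not tested. For the pseudogene H2-T11-ps the counts were 6, 3, 5, 5 and 3 in knockout-labelled libraries, against 19, 1, 5, 2 and 4 in wild-type-labelled libraries.

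The M family was nearly silent apart from H2-M3, and several of its genes are known from sensory neurons of the vomeronasal organ. H2-M2 had 0, 18, 0, 0 and 0 counts in knockout-labelled libraries, against 8, 2, 0, 0 and 0 in wild-type-labelled libraries. H2-M5 had 3, 5, 0, 1 and 3 counts, against 12, 2, 0, 0 and 0, and H2-M9 had 0 in all knockout-labelled libraries, against 26, 0, 1, 0 and 0. Where these rare members had 10 or more counts, it was in knockout-labelled library 2 or wild-type-labelled library 1.

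H2-T13, singled out after its values were seen, did not pass the filter but had counts in every knockout-labelled heart. It had 7, 7, 4, 5 and 7 counts in knockout-labelled libraries 1 to 5, against 2, 0, 0, 1 and 0 in wild-type-labelled libraries 1 to 5. Summed, 30 counts stood against 3, a depth-scaled ratio of 12.7 whose exact 95% interval, for counting error alone, was 3.95 to 65.0. With no filter, its unadjusted p was 0.000542 and its edgeR adjusted p 0.258. The long non-coding RNA Gm65066 (chromosome 17, 36393778 to 36399569, plus strand) overlaps 36.3% of the exonic bases of H2-T13 on the opposite strand. Gm65066 held 31, 24, 25, 33 and 26 counts in knockout-labelled libraries, against 4, 5, 1, 1 and 0 in wild-type-labelled libraries, and was called higher (log2 fold change 3.97 ± 0.48, edgeR adjusted p = 0.00182). Without a known strand setting, the counts of these overlapping genes cannot be told apart.

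Summed by class, the groups overlapped throughout. Classical genes summed to 266.9 ± 35.5 CPM in knockout-labelled and 277.3 ± 90.6 CPM in wild-type-labelled hearts (238.5 ± 30.1 CPM without wild-type-labelled library 1). Non-classical genes summed to 174.0 ± 22.2 CPM in knockout-labelled and 149.7 ± 42.1 CPM in wild-type-labelled hearts (132.1 ± 17.6 CPM without that library). Class II genes summed to 25.9 ± 25.1 CPM in knockout-labelled and 18.9 ± 16.4 CPM in wild-type-labelled hearts (11.6 ± 2.12 CPM without that library; SD, n = 5 each, or 4 without it). The medians of the class II sum ran the other way, at 9.28 CPM in knockout-labelled and 11.9 CPM in wild-type-labelled hearts. The median log2 fold change was -0.06 for the 2 classical genes, 0.06 for the 10 tested non-classical genes and 0.43 for the 5 tested class II genes.

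The H2 stretch begins 5.19 Mb from the end of Mapk13, and H2-T24 lies 7.32 Mb from it. Among the 101 other tested genes of the stretch, 1 was called, Gm65066 (0.99%), and 5.94% had an unadjusted p under 0.05, beside 33.3% of the 18 H2 genes, 21.3% of the tested genes on the rest of chromosome 17 and 6.19% of those on other chromosomes. After Gm65066, the smallest p-values among these neighbours were those of C2, Flot1, Prrc2a, Cfb and Vars2. The complement genes C2 and Cfb, which encode proteases of the classical and alternative pathways, averaged 3.46 ± 0.992 CPM and 4.94 ± 1.69 CPM in knockout-labelled hearts, against 9.68 ± 8.27 CPM and 13.7 ± 14.3 CPM in wild-type-labelled hearts (SD, n = 5 each; edgeR adjusted p = 0.597 and 0.675). Their highest values, 24.3 and 39.01 CPM, were in wild-type-labelled library 1. The membrane scaffold gene Flot1 averaged 77.6 ± 4.47 CPM in knockout-labelled and 95.6 ± 13.3 CPM in wild-type-labelled hearts (SD, n = 5 each; edgeR adjusted p = 0.616). Prrc2a and Vars2, the mitochondrial valyl-tRNA synthetase, had log2 fold changes of 0.18 and -0.35 (edgeR adjusted p = 0.667 and 0.714). On the rest of chromosome 17, 26 of 708 tested genes were called higher and 17 lower (6.07%), whereas on the other chromosomes 12 of 15873 were called higher and 2 lower (0.0882%). H2-T24 thus lay on the chromosome that held most calls. The part of its position beside the deleted gene in the result was not tested.

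**Figure D5:**
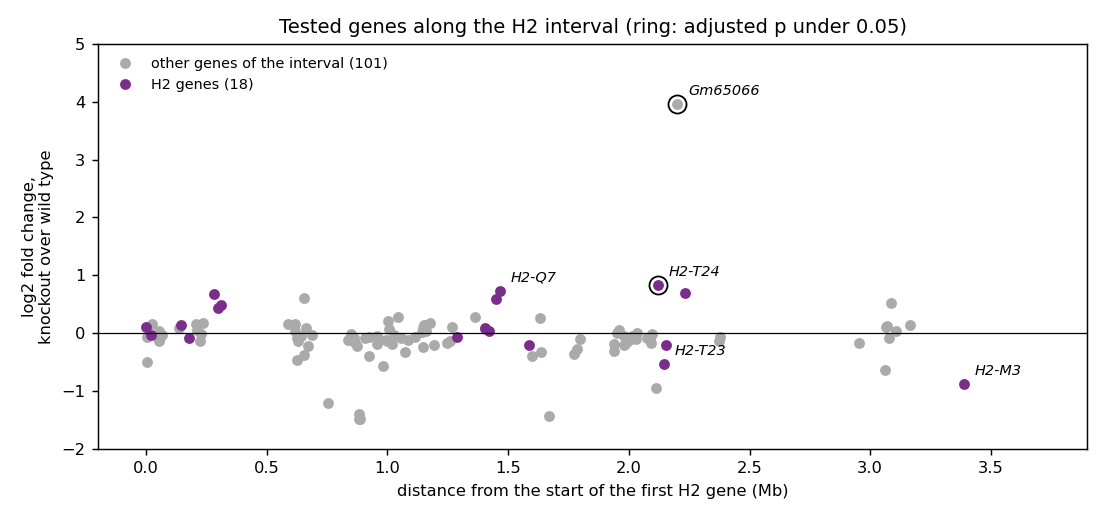
Fitted log2 fold change, knockout-labelled over wild-type-labelled, of the 18 tested H2 genes (purple) and the 101 other tested genes (grey) by distance in Mb from the start of the first H2 gene. Rings mark the 2 called genes, H2-T24 at 0.83 and Gm65066 at 3.97.

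The partners of H2 molecules were read from lists. Of the 19 genes that load or regulate class I, all were tested and none was called, with 5 above 0 and 14 below and a median log2 fold change of -0.02. B2m, the light chain shared by class I molecules, stood at 137.5, 166.8, 130.5, 132.3 and 133.9 CPM in knockout-labelled libraries, against 242.8, 122.6, 147.8, 121.3 and 120.1 CPM in wild-type-labelled libraries, with its highest values in the same 2 libraries as H2-K1 and H2-D1. The peptide-trimming enzyme Erap1 had the smallest p of the list, at 34.2 ± 2.96 CPM in knockout-labelled and 37.8 ± 1.01 CPM in wild-type-labelled hearts (SD, n = 5 each; edgeR adjusted p = 0.722). The lipid-presenting molecule Cd1d1 averaged 2.61 ± 0.42 CPM in knockout-labelled and 3.58 ± 1.98 CPM in wild-type-labelled hearts, and the peptide editor Tapbpl 4.14 ± 0.493 CPM and 4.598 ± 0.862 CPM (SD, n = 5 each; edgeR adjusted p = 0.766 and 0.849).

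None of the 13 class II partners was called, with 3 above 0 and 10 below and a median log2 fold change of -0.14. Cd74, the invariant chain that escorts class II molecules, stood at 5.55, 33.8, 7.28, 33.9 and 2.69 CPM in knockout-labelled libraries, against 25.8, 6.60, 8.11, 10.1 and 7.43 CPM in wild-type-labelled libraries, and was high in the same 3 libraries as H2-Aa. Marchf1, a ubiquitin ligase that removes class II molecules from the surface, averaged 1.82 ± 0.515 CPM in knockout-labelled and 3.15 ± 1.95 CPM in wild-type-labelled hearts (SD, n = 5 each; edgeR adjusted p = 0.714). The co-stimulatory ligand Cd86 averaged 1.58 ± 0.37 CPM in knockout-labelled and 2.11 ± 0.726 CPM in wild-type-labelled hearts, and the protease cathepsin S (Ctss) 9.74 ± 3.14 CPM and 15.4 ± 12.2 CPM (SD, n = 5 each; edgeR adjusted p = 0.751 and 0.766).

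Of 10 receptors of H2 molecules, 4 held enough counts to be tested and none was called. The class II co-receptor Cd4 averaged 1.11 ± 1.52 CPM in knockout-labelled and 0.409 ± 0.183 CPM in wild-type-labelled hearts, with 3.803 CPM in knockout-labelled library 2 and at most 0.725 CPM in any other library (SD, n = 5 each; edgeR adjusted p = 0.736). Klra2 and Pirb, an inhibitory receptor for class I, had log2 fold changes of -0.76 and -0.48 (edgeR adjusted p = 0.799 and 0.821).

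Of 21 genes of interferon signalling, which is known to induce most H2 genes, 19 were tested and none was called. Of the 19, 4 were above 0 and 15 below, with a median log2 fold change of -0.22, beside -0.01 over all genes. The guanylate-binding protein Gbp2 averaged 15.5 ± 2.07 CPM in knockout-labelled and 26.3 ± 10.7 CPM in wild-type-labelled hearts (SD, n = 5 each; edgeR adjusted p = 0.541). Irf7, a transcription factor of the interferon response, averaged 10.5 ± 1.68 CPM in knockout-labelled and 18.1 ± 8.85 CPM in wild-type-labelled hearts, and the chemokine Cxcl10 0.726 ± 0.437 CPM and 1.73 ± 1.08 CPM (SD, n = 5 each; edgeR adjusted p = 0.616 and 0.711). Wild-type-labelled library 1 held the highest value of Gbp2, Irf7 and Cxcl10, at 45.3, 33.7 and 2.90 CPM. For Cxcl10, wild-type-labelled library 3 was as high, at 2.89 CPM. Of the 19 genes, these 3 (Gbp2, Irf7 and Cxcl10) had an unadjusted edgeR p under 0.05, all lower in the knockout-labelled hearts. Over all genes tested, 3.77% were lower and 3.08% higher at that threshold. Without wild-type-labelled library 1, Gbp2 did not overlap either, at 12.2 to 17.8 CPM in the knockout-labelled and 19.7 to 22.4 CPM in the 4 other wild-type-labelled hearts. It was singled out for this after its values were seen. With all libraries, 1.78% of all genes tested did not overlap. Irf7 overlapped without library 1 (12.99 CPM in knockout-labelled library 3, 12.7 CPM in wild-type-labelled library 5). So did Cxcl10 (1.32 CPM in knockout-labelled library 5, 0.592 CPM in wild-type-labelled library 5).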

How the data were processed

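The submitters' sequencing of 10 hearts was used as 1 table of expected counts per gene, which the authors deposited as whole numbers. Hearts went in RNA stabilising solution to a sequencing company that made the libraries, and STAR 2.5.2 aligned the reads to GRCm39, per the labels' protocols. The submitters' processing notes name RSEM 1.3.0. How strand was treated, and with which annotation release, is not given in the sources used here. By RSEM's estimation, reads that fit more than 1 gene are shared out, which leaves counts of near-identical or overlapping H2 genes uncertain.

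Groups came from the genotype label. Symbols and positions came from GENCODE M39, which holds 78168 of the 78298 identifiers. Expected counts needed no rounding. Tests were quasi-likelihood F tests in edgeR 4.0.16 (R 4.3.3) with TMM factors, the default filter at a minimum count of 10, robust dispersions and Benjamini-Hochberg adjustment over the 16700 genes kept. CPM used the same factors. Standard errors are approximate, the absolute log2 fold change over the square root of F. Class sums, ratios and lists are described without a test.

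The 20 pairs of libraries within a group differed by more than sampling noise (chi-square per degree of freedom 8.95 to 162.1), and no library was treated as a copy of another. The labels say no more of how samples were taken, so a p-value here reflects only the spread among these 10 libraries. Depth limits genes of low count most. Alternatives were RLE factors, library totals alone, no filter, a filter of 1 CPM in 5 libraries, DESeq2 1.42.0, limma 3.58.1 voom with quality weights, an adjusted p under 0.01, each library left out, and library 1 labelled wild type left out with library 4 labelled knockout. The setting without wild-type-labelled libraries 1 and 3 and the ratio to H2-K1 and H2-D1 were added after the values were seen.

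Named were every tested H2 gene, members under the filter with 10 or more counts in a library, called members and the 3 smallest p of each list, and called neighbours with the 6 smallest p. H2-T13, H2-Ea, B2m, Cd74, the marker genes and A930015D03Rik were added after their values were seen. The members and lists were chosen with earlier results of these data known. The test was checked on simulated data. Shared sequence took the place of the planned comparison of proteins and was counted as exact 100-base matches between GENCODE transcripts of different genes, and promoter sequences came from RefSeq (GRCm38.p6), whose coordinates were not set against those of GRCm39.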

Additional observations from a re-analysis of the deposited data

Results flagged for a closer look

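In 42 groups of 5 libraries (the tested H2 genes and the class sums), 10 held 1 library far from the rest, with a gap to its nearest neighbour of over 0.71 of the group's range. Chance gives about 1 in 20 such groups, and groups that share libraries are not independent. In 9 of the 10 it was wild-type-labelled library 1, the library with airway and macrophage markers. It held 225.6 CPM of H2-D1 (112.1 to 141.5 in the other wild-type-labelled libraries), 52.3 CPM of H2-T23 (21.4 to 27.1), 35.3 CPM of H2-T22 (16.1 to 19.4) and 4.02 CPM of H2-Q10 (0.741 to 1.21). In class II it held 18.1 CPM of H2-Aa (3.57 to 6.45), 13.7 CPM of H2-Eb1 (2.70 to 4.72), 8.48 CPM of H2-Ab1 (1.88 to 2.36), 2.42 CPM of H2-DMb1 (0.28 to 0.614) and 48.0 CPM of the summed class II genes (9.79 to 14.4). In the knockout-labelled group, library 2 held 155.8 CPM of H2-K1, against 118.7 to 126.0 CPM in the others.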

How the results depend on the processing

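The call of H2-T24 held in 17 of 18 refits, with log2 fold changes of 0.72 to 0.93 and, for example, a DESeq2 adjusted p of 5.181e-09. It was lost with library totals alone, where 0 H2 genes were called higher (edgeR adjusted p of H2-T24 = 0.294). Without wild-type-labelled libraries 1 and 3, 2 were called higher, H2-T24 and H2-Q6. That setting was chosen after the values were seen and leaves out the highest wild-type-labelled values of H2-Q6. The cause was not tested. No H2 gene was called lower in any refit. Over all genes, the edgeR test called 40 higher and 19 lower, while DESeq2 called 130 and limma voom 91 in all. Of 322 refits of single genes, 283 kept direction and call and 37, in 11 genes, changed sign, none with a call. Library totals alone moved the median of all genes to -0.12, from -0.01 with TMM factors, and gave log2 fold changes of -0.002 for H2-K2, -0.0205 for H2-DMa, -0.0439 for H2-Q4 and -0.099 for H2-Q5. Without wild-type-labelled library 1 and knockout-labelled library 4, H2-K1 was at 0.2174, H2-DMb1 at 0.7819, H2-D1 at 0.1808, H2-Q10 at 0.5425 and H2-T22 at 0.1054. Without wild-type-labelled libraries 1 and 3 they were at 0.2921, 0.7417, 0.2033, 0.7122 and 0.1024 in that order. With limma voom and quality weights they were at 0.1473, 0.4956, 0.1063, 0.4487 and 0.0413. Leaving out 1 library at a time gave -0.1247 to 0.191 for H2-K1, -0.1661 to 0.1415 for H2-D1, -0.0674 to 0.4275 for H2-DMa, -0.5796 to 0.8992 for H2-DMb1, -0.0873 to 1.1335 for H2-Aa, -0.003 to 1.127 for H2-Eb1, -0.0769 to 0.1655 for H2-Q5, -0.3767 to 0.5579 for H2-Q10 and -0.2893 to 0.0591 for H2-T22. For H2-K2 and H2-Q4 the only sign change was under library totals alone, which moved all genes, and both stayed above the median of all genes there. For H2-Ab1, which kept its sign, leaving out 1 library gave 0.0591 (without knockout-labelled library 2) to 1.4099 (without wild-type-labelled library 1). The log2 ratio of the summed classical genes was -0.06 with all libraries and 0.16 without wild-type-labelled library 1, and that of class II was 0.46 with all libraries, 1.16 without wild-type-labelled library 1, -0.05 without knockout-labelled library 2 and 0.07 without knockout-labelled library 4. Low counts limit what can be seen for the 31 members under the filter. No paired analysis was possible because the knockout-labelled libraries carry no replicate number.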
